A study of Mus musculus with 6 samples.

Results

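The N-nucleotide-free joins of the TCR δ chain that combine Trdv5, Trdd2 and Trdj1 are described here in sorted γδ T cells of mice that lack Vγ4 and Vγ6 T cells. A clonotype was a CDR3 nucleotide sequence with its V and J segment. A member was a Trdv5-Trdd2-Trdj1 clonotype whose segment borders, in the table of the first read of the pair (R1), left 0 nucleotides between V and D and between D and J. The rule found 50 members among 807 Trdv5-Trdd2-Trdj1 clonotypes and 1991 clonotypes of all kinds. The other 757 Trdv5-Trdd2-Trdj1 clonotypes, with at least 1 inserted nucleotide, are called N-added joins.

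RNA came from γδ T cells of peripheral lymph nodes (pLNs) of mice with the strain label B6.Cg-Tcrgtm1lku (B6.Vγ4-/-/Vγ6-/-), treated with PMA and ionomycin for 3 h. The study separated cells that secreted IL-17 (IL-17pos) from cells that did not (IL-17neg), and the labels number 3 samples of each as 13-01, 20-01 and 27-01. Both groups carry the knockout and the stimulation, no wild-type sample was included, and the antibodies listed for the sort name no single Vγ chain, so the Vγ chain paired with each δ chain was not read. The study describes the mice as adult. Their exact ages and the number of mice per sample are not given in the sources used here, and nothing says that the samples came from separate animals, so p-values measure only the spread between these samples, which may be technical.

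A δ chain CDR3 is made when the RAG recombinase cuts beside V, D and J segments and repair enzymes join the ends. Nucleases trim the ends, opened hairpins can leave short palindromic additions (P nucleotides), and terminal deoxynucleotidyl transferase (TdT) adds N nucleotides that no segment encodes. TdT is scarce in the fetal thymus, where joins without N nucleotides are common and often close at short stretches of sequence that both ends share. Joins formed in this way can arise again in independent cells, and N-added joins seldom do.

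The germline parts below are given because every member is read against them. They were taken from GRCm38 with the RefSeq annotation, and all lie on chromosome 14. The Trdv5 part is the end of its V exon from the conserved cysteine codon, on the minus strand at chr14:54148662-54148676. Trdd2 lies on the plus strand at chr14:54122226-54122241. The Trdj1 part runs to the conserved phenylalanine codon at chr14:54123138-54123157, plus strand. Trdd1, a shorter D segment that can join ahead of Trdd2, lies at chr14:54113468-54113476, plus strand. All sequences are written 5′ to 3′.
Trdv5: TGTGCCTCGGGGTAT
Trdd2: ATCGGAGGGATACGAG
Trdj1: CTACCGACAAACTCGTCTTT
Trdd1: ATGGCATAT

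The joins that carry the results are shown next. Each is named by its D reading frame, which is called after 3 consecutive amino acids that Trdd2 encodes in it (GGI, EGY or RRD), and by its rank in that frame by summed share of reads. Capitals mark the longest run identical to Trdd2. RRD-1, RRD-2 and GGI-1 were the members found in most samples, EGY-1 was the most abundant EGY member, and GGI-2 was the join of untrimmed segments.
RRD-1: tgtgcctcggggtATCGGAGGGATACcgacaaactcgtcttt
RRD-2: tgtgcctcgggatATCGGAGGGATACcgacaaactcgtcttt
GGI-1: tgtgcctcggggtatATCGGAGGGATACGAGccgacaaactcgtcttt
EGY-1: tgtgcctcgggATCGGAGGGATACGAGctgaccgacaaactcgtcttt
GGI-2: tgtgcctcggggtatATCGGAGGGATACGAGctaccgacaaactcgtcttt
The next 5 were chosen after their values were seen. RRD-3 and EGY-2 are the next most abundant, RRD-7 keeps the least of Trdv5 among members with at least 10 reads, GGI-13 encodes the same CDR3 as GGI-2, and GGI-14 contains all of Trdd1.
RRD-3: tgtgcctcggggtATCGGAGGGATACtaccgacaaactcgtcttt
EGY-2: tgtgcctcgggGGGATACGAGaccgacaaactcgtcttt
RRD-7: tGGGATACGAGctccgacaaactcgtcttt
GGI-13: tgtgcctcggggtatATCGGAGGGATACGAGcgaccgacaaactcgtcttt
GGI-14: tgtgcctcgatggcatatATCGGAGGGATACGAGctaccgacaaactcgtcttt

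The R1 tables hold between 95803 and 142169 reads per sample. Trdv5-Trdd2-Trdj1 clonotypes held 342725 of 691768 reads (49.5%), and the members held 46194 of those (13.5%). IL-17neg 13-01, 20-01 and 27-01 contained 11, 9 and 20 members, and the corresponding IL-17pos samples 2, 5 and 23. The samples numbered 27-01 held the most members in both groups, and they also held the most Trdv5-Trdd2-Trdj1 clonotypes, 290 in IL-17neg and 284 in IL-17pos against 48 to 111 in the other 4 samples. With at least 10 reads in the sample, 8, 1 and 14 members were found in IL-17neg and 2, 4 and 15 in IL-17pos. In all, 36 of the 50 members reached 10 reads in a sample, and the other 14 had 1 or 2 reads in the whole series.

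Members held 17.7% of reads in IL-17neg 13-01 (95% Wilson interval 17.4 to 17.9), 3.25% in IL-17neg 20-01 (3.16 to 3.35) and 4.92% in IL-17neg 27-01 (4.79 to 5.04). They held 4.67% in IL-17pos 13-01 (4.54 to 4.80), 6.79% in IL-17pos 20-01 (6.63 to 6.95) and 4.30% in IL-17pos 27-01 (4.19 to 4.40). Reads are PCR products without molecular identifiers, so these intervals, and the limits given for counts of 0, cover counting error only. A limit for a count of 0 is the share that 3 reads, or 3 clonotypes, would make up. The IL-17pos samples lay between the lowest and the highest IL-17neg sample, and IL-17neg 13-01 stood above the rest. In RNA from sorted bulk samples, a lower share of reads from fewer cells and from less RNA per cell cannot be told apart.

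The mean share was 8.61% ± 7.89 (SD, n = 3) in IL-17neg and 5.25% ± 1.34 (n = 3) in IL-17pos. The difference, IL-17pos minus IL-17neg, was -3.36 percentage points (two-sided exact permutation test, p = 0.8, Benjamini-Hochberg adjusted p = 0.9 over 9 results). With 3 samples per group the smallest p this test can give is 0.1. Without IL-17neg 13-01 the difference was 1.17 points in the other direction, without IL-17neg 20-01 it was -6.04, and with joins of germline bases only it was -1.32. As a share of Trdv5-Trdd2-Trdj1 clonotypes, members made up 10.8%, 8.11% and 6.90% in IL-17neg and 4.17%, 4.55% and 8.10% in IL-17pos. These shares overlapped between the groups (8.60% ± 1.99 against 5.60% ± 2.17, n = 3 each, exact permutation p = 0.2, adjusted p = 0.9). The difference of -2.99 percentage points was -1.90 without IL-17neg 13-01, -1.61 without occurrences whose share was under 1/50 of that in another sample, and -0.854 when only joins of germline bases counted as members.

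How member reads were spread over clonotypes differed widely between samples. In IL-17neg 20-01, EGY-1 alone held 99.8% of member reads. The inverse Simpson index of member reads, which is near 1 where a single clonotype holds nearly all of them and rises as they spread, was 4.51, 1.00 and 7.17 in IL-17neg and 1.99, 2.27 and 7.18 in IL-17pos. The samples numbered 27-01 again stood highest in both groups.

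RRD-1 was the most abundant member in IL-17neg 13-01, IL-17pos 20-01 and IL-17pos 27-01. Its bases are all germline-encoded. Trdv5 can be read to its last base and Trdd2 from its first, with 2 bases that both segments encode, and another 3 bases are shared by Trdd2 and Trdj1. RRD-1 had 6393, 2 and 184 reads in IL-17neg 13-01, 20-01 and 27-01. It had 0, 4057 and 1784 reads in IL-17pos 13-01, 20-01 and 27-01. It reached 5.94% of all reads in IL-17neg 13-01 and 4.23% in IL-17pos 20-01. The 0 in IL-17pos 13-01 allows a share of up to 0.00304% by the limit of 3 reads (upper 95% Wilson limit 0.00389%).

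RRD-2 differs from RRD-1 by the substitution G12A, with positions counted from 1 at the first CDR3 base, and encodes the same CDR3 protein sequence. The changed base is a mismatch to Trdv5 at position 12 of its 15 CDR3 bases, so Trdv5 counts as trimmed by 4 bases, and the 2 bases before Trdd2 match P nucleotides of the untrimmed Trdd2 end. RRD-2 had 4642, 0 and 141 reads in IL-17neg 13-01, 20-01 and 27-01, and 2500, 0 and 537 reads in IL-17pos. It was the most abundant member of IL-17pos 13-01, in which RRD-1 had 0 reads, and it was absent from the R1 table of IL-17pos 20-01, in which RRD-1 led. In the 3 samples that held both, RRD-1 had more reads than RRD-2. A further form, RRD-10 (C30T, chosen after its values were seen), encodes the same protein, and with it the members of this protein sequence held 20392 of the 20807 reads of its Trdv5-Trdj1 forms.

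GGI-1 joins the whole of Trdv5 to the whole of Trdd2, and Trdj1 is trimmed by 3 bases. It had 3153, 1 and 523 reads in IL-17neg 13-01, 20-01 and 27-01, and 0, 512 and 0 reads in IL-17pos. It was thus present with at least 10 reads in both groups, and in the group IL-17pos in 1 of 3 samples.

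EGY-1 joins the full length of Trdd2 to trimmed Trdv5 and Trdj1 ends, and 1 of its bases was explained neither by a segment nor as a P nucleotide. It had 0, 4313 and 2 reads in IL-17neg 13-01, 20-01 and 27-01, and 0 reads in each IL-17pos sample. EGY-2, which is built of germline bases with 1 base shared by Trdv5 and Trdd2, had 3 reads in IL-17neg 13-01, 2110 in IL-17pos 13-01 and 0 in the other 4 samples. The 2 most abundant EGY members were thus each carried by 1 sample, and these samples belonged to different groups.

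GGI-2, in which no base of Trdv5, Trdd2 or Trdj1 is trimmed, had 1705 reads in IL-17neg 27-01 (1.49% of its reads) and 0 in the other 5 samples. GGI-13 encodes the same CDR3 protein and differs by T33G. It had 296 reads in IL-17pos 27-01, 1 read in IL-17neg 20-01 and 0 elsewhere. RRD-3, an RRD join with untrimmed Trdj1, had 2487 reads in IL-17neg 13-01 and 0 in the other samples. RRD-7 keeps 2 bases of Trdv5 and therefore no cysteine codon from it, and had 636 reads in IL-17neg 13-01 and 1 in IL-17pos 20-01.

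A border gap of 0 did not mean that every base came from a germline segment, so each member was rebuilt from the start of Trdv5, the longest Trdd2 piece and the end of Trdj1. A mismatch inside a segment counted here as unexplained too. In 10 of the 50 members every base was germline, and these held 53.3% of member reads. Another 8 members needed P nucleotides, at most 4 per untrimmed end, and held 24.3% of member reads. Of the remaining 32, 6 members had 1 or 2 unexplained bases (14.4% of reads) and 26 had 3 or more (7.96% of reads). Among the 36 members with at least 10 reads the counts were 9, 7, 6 and 14 in the same order. Summed over samples, joins of germline bases alone thus held most member reads, but most members by number were of other kinds. In IL-17neg 13-01, 20-01 and 27-01 such joins held 63.3%, 0.0694% and 46.8% of member reads, and in IL-17pos 45.8%, 85.3% and 37.8%. No N-added join could be built from germline bases and P nucleotides (0 of 757, which allows a share of up to 0.396%).

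Some of the unexplained bases matched Trdd1. A stretch of at least 5 Trdd1 bases, with at least 3 of them outside the V, Trdd2 and J pieces, was present in 13 of 50 members (26%) and in 9 of the 36 with at least 10 reads. GGI-14, which carries all 9 bases of Trdd1 between Trdv5 and Trdd2, had 221 reads in IL-17neg 27-01 and 1 in IL-17neg 13-01. Such stretches were found in 374 of the 757 N-added joins (49.4%). A match of this length is a description of the letters and does not show that Trdd1 took part in the join.

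Germline and P-nucleotide joins held most of the member reads in 5 of 6 samples. Their share of member reads was 99.2%, 0.0925% and 56.1% in IL-17neg 13-01, 20-01 and 27-01, and 100% (2 of 2 members), 85.3% and 60.1% in IL-17pos. The exception was IL-17neg 20-01, in which EGY-1 held nearly all member reads.

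By reading frame, 28 of the 50 members were GGI, 9 were EGY and 13 were RRD. Among those with at least 10 reads the counts were 19, 7 and 10 of 36. By reads the order changed, and RRD held 58.1% of member reads, GGI 25.2% and EGY 16.7%. The N-added joins were 42.8% GGI, 29.5% EGY and 26.9% RRD by clonotype, and in 0.793% of them the frame was ambiguous. The leading place of RRD by reads came with RRD-1 and RRD-2, which had 12420 and 7820 of the 26836 RRD reads. Together with GGI-1, a GGI join, they held 74.6%, 0.0694% and 15.0% of member reads in the IL-17neg samples. In the IL-17pos samples the 3 members held 54.2%, 70.3% and 38.0%. Of these reads in IL-17neg 27-01, GGI-1 had 523, RRD-1 184 and RRD-2 141.

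RRD members held 82.6%, 0.0463% and 17.8% of member reads in IL-17neg 13-01, 20-01 and 27-01, and 54.2%, 77.1% and 42.8% in IL-17pos. GGI members held 17.4%, 0.162% and 76.7% in IL-17neg, and 0%, 22.9% and 41.5% in IL-17pos. EGY members held 0.0158%, 99.8% and 5.46% in IL-17neg, and 45.8%, 0% and 15.7% in IL-17pos. RRD led in each IL-17pos sample, by 42.8% against 41.5% in IL-17pos 27-01 and with 2 members in IL-17pos 13-01, and a different frame led in each IL-17neg sample. The RRD share of member reads differed by 24.6 percentage points between the groups (exact permutation p = 0.5, not adjusted), so this order was not separated from the spread between samples.

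Counted by clonotype, GGI made up 53.0% ± 22.3 of the members in IL-17neg and 32.2% ± 29.1 in IL-17pos (n = 3 each, exact permutation p = 0.5, adjusted p = 0.9). EGY made up 15.4% ± 6.58 and 23.9% ± 25.1 (exact permutation p = 0.8, adjusted p = 0.9). RRD made up 31.6% ± 28.1 and 43.9% ± 19.8 (exact permutation p = 0.7, adjusted p = 0.9). The GGI share was lower in IL-17pos within each of the 3 sample numbers, and the groups overlapped. None of these differences exceeded the spread between samples, and IL-17pos 13-01 contributed only 2 members, RRD-2 and EGY-2. The GGI difference of -20.8 percentage points was -4.72 without IL-17pos 13-01 and -33.7 without IL-17neg 13-01, and the RRD difference of 12.3 was 2.09 without IL-17neg 20-01 and 28.4 without IL-17neg 13-01. The RRD difference turned to -2.64 with at least 2 reads, -21.1 with joins of germline bases only and -0.926 with P nucleotides allowed. The EGY difference of 8.48 was -4.57 without IL-17pos 13-01 and 20.4 without IL-17pos 20-01. At a minimum of 10 reads, the GGI difference changed sign to 9.29 percentage points and the EGY difference to -14.8. At that minimum IL-17neg 20-01 held only 1 member, EGY-1, so its EGY share was 100% and its GGI share 0%.

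Trimming of Trdv5 and Trdj1 was counted as the germline bases left over after the unbroken match that starts at the outer end of the CDR3, and trimming of Trdd2 as those outside its longest match. A single mismatch inside Trdv5 or Trdj1 therefore made all bases beyond it count as trimmed, as in GGI-16 (T7C from GGI-1, 9 Trdv5 bases) and RRD-10 (C30T, 8 Trdj1 bases), both chosen after their values were seen. Such a mismatch, with at least 4 matching bases beyond it, was present in 12 of 50 members and 3 of 36 with at least 10 reads, and in 188 of 757 and 28 of 461 N-added joins. Trdv5 was untrimmed in 19 of 50 members (38%), Trdj1 in 16 (32%), the 5′ end of Trdd2 in 34 (68%) and its 3′ end in 29 (58%). In the N-added joins the same ends were untrimmed in 26.2%, 32.9%, 61.3% and 36.5%. The median Trdd2 piece had 14 of 16 bases in members and 12 in N-added joins. Members also had the shorter CDR3, with a median of 48 nucleotides (range 30 to 60) against 57 (33 to 78), a difference that the rule itself favours because members lack insertions.

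Members were next compared with the N-added joins of the same sample, by the mean number of trimmed bases per clonotype. For Trdj1 the means of members were 1.73, 2.44 and 3.35 in IL-17neg and 1.5, 2 and 4.39 in IL-17pos. Those of N-added joins were 4.13, 3.64 and 4.44 in IL-17neg and 4.48, 3.18 and 4.16 in IL-17pos. Trdj1 was thus trimmed less in members in 5 of 6 samples, with a mean difference of -1.43 ± 1.13 bases (SD, n = 6), and IL-17pos 27-01 was the exception. The exact sign-flip permutation test over the 6 samples gave p = 0.0625 and an adjusted p of 0.125 over 4 results, and the smallest p it can give is 0.031.

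For Trdv5 the means of members were 3.73, 1.11 and 3.35 in IL-17neg and 3.50, 2.60 and 3.35 in IL-17pos, and those of N-added joins were 3.70, 2.98 and 3.51 and 3.93, 2.99 and 3.72. The mean difference was -0.534 ± 0.677 bases (lower in 5 of 6 samples, exact permutation p = 0.0625, adjusted p = 0.125). Bases that both neighbouring segments encode count as untrimmed in both, and the rule for members favours them. For Trdd2, both ends together, the mean difference was -1.04 ± 1.38 bases (lower in 5 of 6 samples, exact permutation p = 0.125, adjusted p = 0.125), with IL-17pos 13-01 as the exception. None of the 3 differences passed the adjusted threshold of 0.05.

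The size of these differences depended on low counts, on mismatches and on shared bases. Among clonotypes with at least 10 reads in the sample, the Trdj1 difference was -0.400 bases (lower in 5 of 6 samples, exact permutation p = 0.094) and that for Trdv5 -0.133 (lower in 3 of 6, exact permutation p = 0.84), whereas that for Trdd2 was -1.45 (lower in 5 of 6, exact permutation p = 0.094). When trimming was counted past a mismatch that at least 4 matching bases followed, the Trdj1 difference was -0.311 bases and the Trdv5 difference -0.291, each lower in 4 of 6 samples (exact permutation p = 0.19 and 0.31). With both changes together, the Trdj1 difference was -0.289 and the Trdv5 difference turned to 0.0199 (exact permutation p = 0.25 and 0.91). Bases encoded by both neighbours mattered as well. Counted for Trdv5 and Trdj1 alone, they left a Trdd2 difference of 0.0398 (exact permutation p = 1), and counted for Trdd2 alone, a Trdv5 difference of -0.107 and a Trdj1 difference of -0.785 (exact permutation p = 0.69 and 0.0625). No p in this paragraph was adjusted, and the lesser trimming of members is thus given as a description that depends on how bases are assigned.

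Between the groups, members lacked 2.28 ± 0.394 Trdd2 bases in IL-17neg and 3.44 ± 0.969 in IL-17pos (n = 3 each, exact permutation p = 0.2, adjusted p = 0.9). The value of IL-17pos was above that of IL-17neg within each of the 3 sample numbers, and the groups overlapped. Trdv5 trimming was 2.73 ± 1.41 and 3.15 ± 0.482 bases (exact permutation p = 0.9, adjusted p = 0.9), and the difference of 0.420 turned to -1.30 with at least 10 reads and to -0.389 without IL-17neg 20-01. Trdj1 trimming was 2.51 ± 0.813 and 2.63 ± 1.55 bases (exact permutation p = 0.9, adjusted p = 0.9). Among members with at least 10 reads, Trdj1 was trimmed less in IL-17pos, with a difference of -0.574 bases against 0.123 over all members. At that minimum the exact permutation p was 0.1, the smallest possible value, not adjusted. The sample means behind it came from 8, 1 and 14 members in IL-17neg and 2, 4 and 15 in IL-17pos. The direction of the Trdd2 difference, 1.16 bases, held in every alternative that was run, and its size ranged widely. It was 0.336 with at least 2 reads (exact permutation p = 0.9), 0.633 without IL-17pos 13-01, which held 2 members (p = 0.3), and 0.722 with joins of germline bases and P nucleotides (p = 0.4). It reached the smallest p of 0.1 with the R2 tables (difference 1.83 bases), weighted by reads (2.05), and with joins whose deposited borders leave Trdd2 at least 6 bases (1.32), each by the exact permutation test and not adjusted. In the R2 tables IL-17neg 20-01, with a mean of 0 bases, and IL-17pos 13-01 held 2 members each. Weighted by reads, IL-17neg 20-01 was nearly EGY-1 alone (99.8% of its member reads), in which Trdd2 is untrimmed. Without IL-17pos 20-01 the Trdd2 difference was 1.58 bases, also with an exact permutation p of 0.1, not adjusted. With 3 samples per group none of these differences could pass a threshold of 0.05.

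Bases that 2 neighbouring segments both encode were more frequent in members than in N-added joins, as the rule allows, since an inserted base breaks such a stretch. They were found at the Trdv5-Trdd2 junction in 13 of 50 members (26%) and 16 of 757 N-added joins (2.11%), and at the Trdd2-Trdj1 junction in 8 (16%) and 24 (3.17%). At either junction, 17 members (34%) had them. Of the 36 members with at least 10 reads, 13 had them. RRD-1 had them at both junctions, as did RRD-3, and GGI-1 and GGI-2 at neither.

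Members were found in several samples more often than N-added joins. At any count, 13 of 50 members (26%) and 99 of 757 N-added joins (13.1%) had reads in at least 2 samples. With at least 10 reads, 3 of 36 members (8.33%) and 0 of 461 N-added joins were found in at least 2 samples, and the latter allows a share of up to 0.651%. The 3 members were RRD-1 and RRD-2, each in 4 samples, and GGI-1, in 3. No test was made, because clonotypes of a sample are not independent of each other and these members were known to be shared from earlier work on the data. Over all 1188 clonotypes with at least 10 reads, 9 were found in 2 or more samples at that level, and these 3 members were the only ones found in 3 or more. Among the Trdv1-Trdd2-Trdj1 joins without N nucleotides, 9 of 51 (17.6%) were found in at least 2 samples at any count and 2 of 32 (6.25%) with at least 10 reads, against 222 of 1991 (11.2%) and 9 of 1188 (0.758%) over all clonotypes. The observed sharing was thus above that of all clonotypes for the N-free joins of both V segments. For Trdv1 with at least 10 reads this rests on 2 clonotypes. Neither this excess nor a difference between the V segments was tested.

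Of the 13 members found in 2 or more samples, 11 were found in both groups, and EGY-1 and GGI-14 in IL-17neg alone. At any count, these 11 members were 33.3% of the 33 in IL-17neg and 39.3% of the 28 in IL-17pos. With at least 10 reads, 3 were common, which is 15% of 20 and 15.8% of 19. For comparison, 85 N-added joins were common at any count (19.3% of 440 and 21.1% of 402) and 0 with at least 10 reads (of 221 and 240, which allows up to 1.36% and 1.25%). Over all clonotypes, 184 were common at any count (16.8% of 1098 and 17.1% of 1077) and 6 with at least 10 reads (1.10% of 546 and 0.926% of 648). These shares were not tested against each other. In the table of the second read (R2), 5 of the 50 members were common to the groups at any count and 3 with at least 10 reads. By the same rule, the R2 tables held 11, 2 and 15 members in IL-17neg and 2, 6 and 15 in IL-17pos. These counts do not show which members were found again. Looked up by sequence, most occurrences with fewer than 10 reads in R1 had no reads in R2. Among the abundant ones, RRD-1 had 4733, 0 and 145 reads in IL-17neg and 0, 2861 and 1266 in IL-17pos, and RRD-2 had 3508, 0 and 114 and 1864, 0 and 399. Both were thus present with at least 10 reads in the same 4 samples in either read.

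Low counts made up much of the sharing. Of the 70 occurrences of members in samples, 26 had fewer than 10 reads, 8 of them in IL-17neg 20-01 and 8 in IL-17pos 27-01. In 11 of the 26 the same clonotype had a share of reads over 50 times higher in another sample, and in another 9 the sequence differed by 1 or 2 bases from a clonotype with at least 10 times more reads in the same sample. The remaining 6 met neither description. The 2 reads of RRD-1 and the 1 read of GGI-1 in IL-17neg 20-01 are among the 11. As a measure of how often abundant clonotypes appeared in other libraries, the 20 largest N-added joins of each sample were looked up in the other 5. Reads were found in 75 of the 600 cases (12.5%), in up to 10 of 20 between 2 samples, and never more than 4 reads in a case. The part of PCR errors and of reads carried between libraries in the low counts was not tested.

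Members tended to have more reads per clonotype than N-added joins. The mean log10 read count of members was 2.33, 0.471 and 1.74 in IL-17neg and 3.36, 2.46 and 1.54 in IL-17pos, against 1.20, 0.803 and 1.43 and 1.63, 1.45 and 1.51 for N-added joins. The mean was higher in members in 5 of 6 samples, by 0.644 ± 0.773 on the log10 scale (n = 6, exact permutation p = 0.125, adjusted p = 0.125). IL-17neg 20-01, in which 8 of 9 members had fewer than 10 reads, was the exception, and the difference did not pass the threshold. It was smaller with at least 10 reads (0.260), with the R2 tables (0.322), with at least 2 reads (0.353) and without IL-17pos 13-01 (0.428), and the exact permutation p ranged from 0.0625 to 0.25 over these 4.

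The corresponding joins of Trdv1, the other V segment amplified, were less abundant by reads. Members made up 27.8%, 6.63% and 10.2% of Trdv5-Trdd2-Trdj1 reads in IL-17neg and 12.9%, 13.8% and 8.58% in IL-17pos. N-free joins made up 1.58%, 0.513% and 4.51% of Trdv1-Trdd2-Trdj1 reads in IL-17neg and 9.51%, 9.41% and 8.38% in IL-17pos. The Trdv5 share was thus the higher in 6 of 6 samples, which was not tested, and in IL-17pos 27-01 the shares lay close together. By clonotype, N-free joins made up 5.15% to 10.4% for Trdv1 and 4.17% to 10.8% for Trdv5, and neither V segment was the higher in more than 3 of 6 samples.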

How the data were processed

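The authors made RACE PCR amplicons of the δ chain from sorted IL-17pos and IL-17neg cells, sequenced them in pairs on a MiSeq, used MiXCR with the IMGT reference for annotation, and deposited VDJtools tables. The version of MiXCR, and how it merged near-identical sequences, are not given in the sources used here, and the submitters' processing notes name mm10. Each clonotype has a deposited read count, without normalization, and a deposited fraction, its part of all reads in the table. The R1 tables (95803 to 142169 reads) gave the reported values.

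Insertions were counted from the deposited segment borders. Each CDR3 was also aligned to germline segments read from GRCm38 with SciPy 1.17.1, pandas 2.3.3 and NumPy 2.4.6 under Python 3.11.15, a step checked on simulated joins (seed 17). The 9 IL-17pos against IL-17neg differences were compared over 20 assignments of 3 and 3 samples, and the 4 differences between members and N-added joins by sign flips over 6 samples, both exact and two-sided, with Benjamini-Hochberg adjustment within each family. Groups came from the labels.

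Members were named by rule: the untrimmed join, the most abundant member of each sample and of each frame, and those in at least 4 samples or with at least 10 reads in at least 2. The members, the rule and the tests were chosen with earlier results of these data known. Alternatives were the R2 tables, minimums of 2 and 10 reads, germline-only joins, at least 6 bases between the deposited Trdd2 borders, leaving out occurrences under 1/50 of the share in another sample, weights by reads, a replicate block, and each sample left out. Joins of germline bases and P nucleotides, by 2 definitions, trimming counted past a mismatch followed by at least 4 matches, and shared bases counted for 1 segment, were added after seeing the data.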

Additional observations from a re-analysis of the deposited data

How the results depend on the processing

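Of 148 alternative values of the 9 differences between IL-17pos and IL-17neg, 122 kept their direction and 26 reversed, and none passed the threshold. Reversed values, IL-17pos minus IL-17neg, were as follows, in percentage points for frame shares and bases for trimming, and the cause was not tested. With the R2 tables, Trdj1 trimming was -0.974. With at least 2 reads, GGI was 1.20, RRD -2.64 and Trdv5 trimming -0.480. With at least 10 reads, where IL-17neg 20-01 held 1 member, GGI was 9.29, EGY -14.8, Trdv5 trimming -1.30 and Trdj1 trimming -0.574. With germline bases only, GGI was 1.11, RRD -21.1 and Trdj1 trimming -0.333. Without occurrences under 1/50 of the share elsewhere, Trdv5 trimming was -1.01 and Trdj1 trimming -1.39. Weighted by reads, EGY was -14.6, Trdv5 trimming -0.485 and Trdj1 trimming -0.659. With P nucleotides allowed, RRD was -0.926 by both definitions. With at least 10 reads and mismatches passed over, Trdv5 trimming was -0.925 and Trdj1 trimming -0.763. With each sample left out in turn, the share of reads ranged from -6.04 to 1.17 and that of Trdv5-Trdd2-Trdj1 reads from -7.22 to 3.36, both positive only without IL-17neg 13-01. EGY ranged from -4.57 (without IL-17pos 13-01) to 20.4, Trdv5 trimming from -0.389 (without IL-17neg 20-01) to 0.919, and Trdj1 trimming from -0.757 to 0.688, negative without IL-17neg 13-01 (-0.267) or IL-17pos 27-01.

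Of 66 alternative values of members against N-added joins, 64 kept their direction. Trdv5 trimming reversed to 0.0199 with at least 10 reads and mismatches passed over, and Trdd2 trimming to 0.0398 with shared bases counted for Trdv5 and Trdj1 alone. An exact permutation p of 0.031, not adjusted, was reached by 7. For Trdj1 these were -1.23 (R2), -0.785 (at least 2 reads), -2.50 (germline bases only), and -2.45 by both P-nucleotide definitions, and for Trdv5 -2.45 (germline bases only) and -0.829 (without occurrences under 1/50 of the share elsewhere). The germline and P-nucleotide filters remove members with bases unmatched to Trdv5 or Trdj1 and set no such limit on the joins they are compared with, so those 4 values are no support for lesser trimming. Beside the values of the preceding comparisons, those over 1.5 times smaller were -0.613 for Trdj1 and -0.335 for Trdv5 (weighted by reads), -0.303 (R2) and -0.267 (without IL-17neg 20-01) for Trdv5, and -0.672 and -0.608 for Trdd2 (P-nucleotide definitions).

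The sample numbers share no stated source. Over the 222 clonotypes found in 2 or more samples, deviations from group means correlated at 0.0705, 0.0542 and 0.0692 between samples of the same number, below the 0.1 set for pairing, though each sample correlated best with its own number. With the replicate block, the share of reads differed by -3.36 points (exact permutation p = 0.75, smallest possible 0.25), GGI by -20.8 points and Trdd2 trimming by 1.16 bases (both p = 0.25), and no call changed. The reads of 1 to 9 behind 26 of 70 occurrences, and the 2 to 23 members per sample, limit every value above.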
